A study of Mus musculus with 4 samples.

Results

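Ddit4, Sgk1, Tsc22d3 and Fkbp5, genes that glucocorticoids induce in many tissues, and Nr3c1 and Nr3c2, which encode the glucocorticoid and the mineralocorticoid receptor, were read in mouse dorsal raphe nucleus after repeated forced swimming. They were picked by name, as every probe that the array's gene table gives to them, and make up 6 of 16383 genes measured. The table gives each gene 1 probe, namely M200004194 for Ddit4, M300001921 for Sgk1 (under its older symbol Sgk), M300007712 for Tsc22d3, M400001392 for Nr3c2, M300004002 for Fkbp5 and M200002031 for Nr3c1. All 6 probes were above the detection limit on all 4 arrays, so no member was lost to a filter on low values.

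The adrenal cortex releases corticosterone, the main glucocorticoid of mice, in response to stress and in a daily rhythm. The hormone enters cells and binds both receptors, which belong to the same family, the mineralocorticoid receptor with high affinity and the glucocorticoid receptor with lower affinity, which is therefore filled mainly at the daily peak and after stress. Before binding, the receptors are held in a complex with the chaperone HSP90 and co-chaperones. Once bound they move to the nucleus and act on genes through glucocorticoid response elements, and transcripts of the induced genes are widely used as readouts of recent hormone exposure. The dorsal raphe, the brainstem nucleus that supplies the forebrain with serotonin, is among the brain regions known to contain the glucocorticoid receptor.

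Of the 4 single-colour arrays, 1 carried RNA of mice that never swam and 3 that of swum mice, and all came from C57BL/6J males of 10 weeks. They were wild type (WT) without stress, WT with stress, stressed D2R-KO mice, in which the dopamine D2 receptor is knocked out, and stressed D2LR-KO mice, which lack its long form. Stress meant 6 min of forced swimming on each of 4 days in a row, with the tissue collected 12 h after the final session. Each array held a pool of 5 mice, and no array of a non-stressed knockout was among them, so stress and genotype change together between either knockout and the non-stressed WT array. With 1 pool per group there is no replicate, no difference could be tested, and every fold below compares single arrays. Hormone levels and the hour of the day at which tissue was taken are not given in the labels.

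The stressed WT array stood apart from the rest. Across genes its log2 signals correlated at r = 0.958 to 0.966 with the other 3 arrays, which correlated at 0.990 to 0.994 with each other. Results that rest on it are therefore given beside those of the comparisons that do not use it. The labelled tissue was checked with Tph2, which encodes the serotonin-synthesising enzyme of neurons and had deposited intensities of 31.4 (non-stressed WT), 10.7 (stressed WT), 264.6 (D2R-KO) and 151.5 (D2LR-KO), on a scale where every array has a median of 25. Its level was thus near or below the median on both WT arrays and well above it on both knockout arrays. The Drd2 probe was not used here to check the knockouts, since its position in the gene is not known.

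The promoters were read first, because a glucocorticoid response element is the sequence that ties such genes to the hormone. RefSeq windows on build GRCm38.p6 run from 250 bases before to 50 bases after an annotated start. They were searched for 5 of the 6 members, all but Nr3c1. There were 6 starts for Sgk1, 3 for Tsc22d3 and 1 each for Ddit4, Fkbp5 and Nr3c2. The full palindrome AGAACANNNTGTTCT was present in 1 of these 12 windows, window 5 of Sgk1, as AGAACAGAATGTTCT with its first base 189 bases before the start. Among all 32851 windows of that length it was present in 3, or 0.00913%, the other 2 belonging to Acnat2 and Gm35041. The 6-base arm AGAACA, searched on both strands and so also as TGTTCT, lay in 4 member windows, 3 of Sgk1 and 1 of Tsc22d3, against 19.0% of all windows. The windows of Ddit4, Fkbp5 and Nr3c2 held neither, which says only that these letters are not in these 300 bases. The looser core GNACANNNTGTNC, which the full palindrome contains, lay in the same Sgk1 window and in 0.475% of all windows. A match is a run of letters and not a measured binding site. The 250 bases before the start are shown for the 3 induced genes whose levels differed most between arrays, with capitals for the full element in Sgk1 and for the arm in Tsc22d3. A further arm of the Sgk1 sequence, TGTTCT near its 5′ end, overlaps the E-box CACGTG there and is in lower case.
Sgk1, start 5, chr10:21993640-21993889, plus strand: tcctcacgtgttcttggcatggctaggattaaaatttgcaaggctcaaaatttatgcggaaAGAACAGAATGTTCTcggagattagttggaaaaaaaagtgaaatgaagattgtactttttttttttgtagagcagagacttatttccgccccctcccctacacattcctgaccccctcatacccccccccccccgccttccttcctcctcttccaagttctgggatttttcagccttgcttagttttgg
Tsc22d3, start 2, chrX:140600523-140600772, minus strand: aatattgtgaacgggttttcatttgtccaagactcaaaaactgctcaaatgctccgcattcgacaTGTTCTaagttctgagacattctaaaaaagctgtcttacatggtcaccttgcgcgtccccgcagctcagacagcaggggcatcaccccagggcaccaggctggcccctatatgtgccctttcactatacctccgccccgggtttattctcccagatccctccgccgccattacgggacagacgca
Ddit4, chr10:59951771-59952020, minus strand: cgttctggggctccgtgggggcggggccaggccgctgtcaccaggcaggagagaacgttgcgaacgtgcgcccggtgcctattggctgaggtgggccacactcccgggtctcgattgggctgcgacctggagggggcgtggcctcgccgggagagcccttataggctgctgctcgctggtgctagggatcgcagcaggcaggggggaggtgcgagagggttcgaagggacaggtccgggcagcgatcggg

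Motifs of other signals were searched in the same windows, on both strands. The cyclic AMP response element TGACGTCA was in none of the 12 member windows and in 1.79% of all windows. The E-box CACGTG, to which clock factors bind, was in window 5 of Sgk1 and the window of Fkbp5, and in 7.15% of all windows. Of the 30 other glucocorticoid-induced genes listed for comparison, windows were searched for 25, 32 windows in all. None of those held the full palindrome. The core lay in 4 windows, of the 3 genes Fam107a, Mt1 and Txnip, against 0.475% of all windows. The arm AGAACA lay in 3 of the 32 windows, against 19.0% of all windows. The cyclic AMP response element lay in 2 and the E-box in 4, against 1.79% and 7.15%.

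Ddit4 was lower on every stressed array than on the non-stressed one. It encodes an inhibitor of the growth kinase complex mTORC1 that is switched on by glucocorticoids, low oxygen and DNA damage. Its deposited intensity was 442.1 (non-stressed WT), 94.4 (stressed WT), 90.0 (D2R-KO) and 68.8 (D2LR-KO). The non-stressed array stood alone at the top, with the 3 stressed arrays close together. On the scale used for all folds, log2 of the background-corrected signal plus 50, Ddit4 was at -1.76 (stressed WT), -2.04 (D2R-KO) and -2.25 (D2LR-KO) against non-stressed WT. These are levels 3.40-, 4.12- and 4.76-fold lower. From the lowest log2 fold upward Ddit4 ranked 17 of 15643 genes in stressed WT, 6 of 15607 in D2R-KO and 4 of 15574 in D2LR-KO. The difference does not rest on the array that stood apart, since the last 2 comparisons do not use it. Among the stressed arrays the steps were small, with D2R-KO at -0.28 and D2LR-KO at -0.49 against stressed WT and D2LR-KO at -0.21 against D2R-KO. For comparison, the SD of a log2 difference between 2 arrays over 24 repeated control spots was 0.0966 to 0.227, which covers spots on an array and neither mice nor labelling. In bulk tissue, less of a transcript per cell and fewer of the cells that contain it cannot be told apart.

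**Figure D1:**
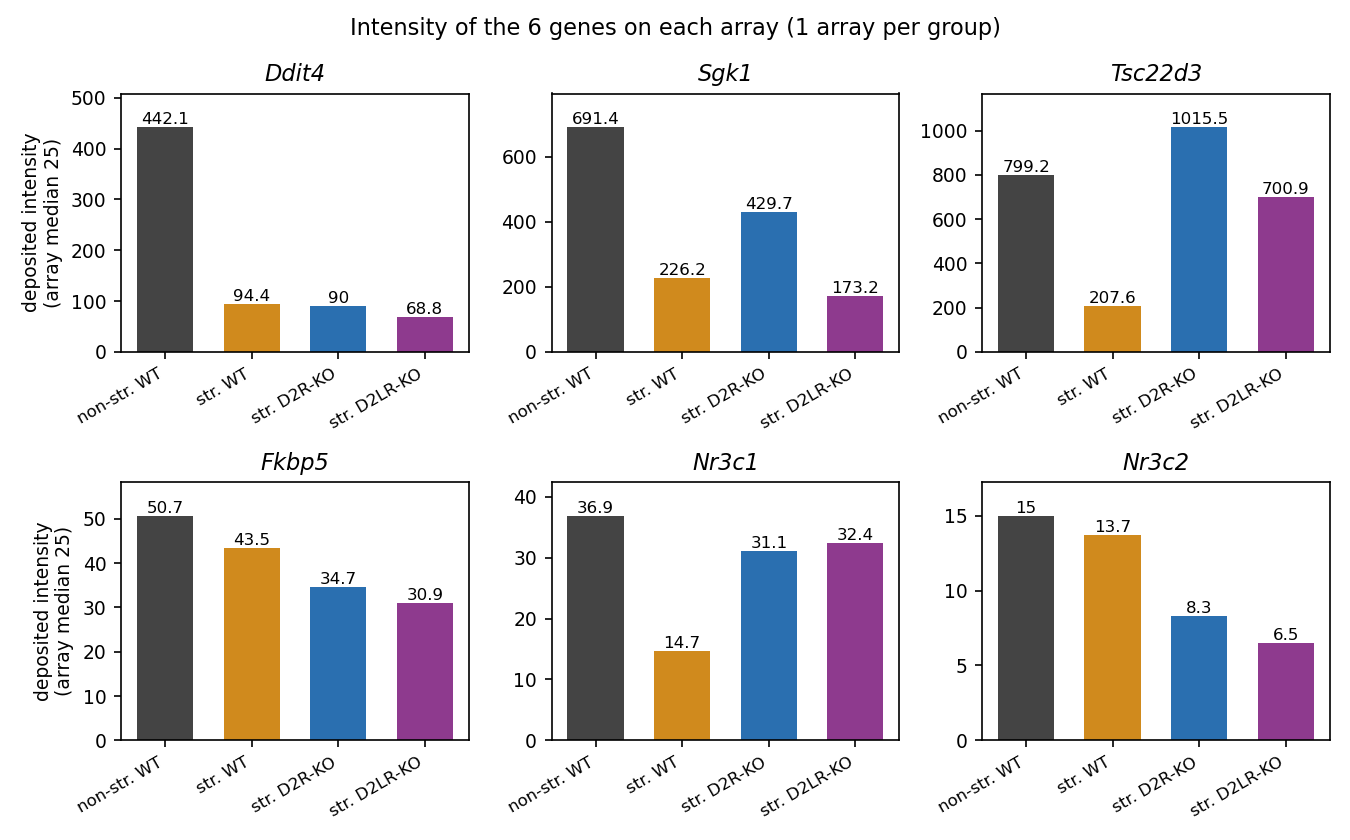
Deposited intensity (linear scale, every array with a median of 25) of the 6 genes on the 4 arrays, 1 bar per array and 1 panel per gene, each with its own vertical axis from 0. There are no error bars because each group is 1 pool of 5 mice. Ddit4 is at 442.1 on the non-stressed array and at 68.8 to 94.4 on the 3 stressed arrays, whereas Tsc22d3 is at 207.6 in stressed WT and at 700.9 to 1015.5 on the other 3.

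Sgk1 encodes a serine/threonine kinase of the Akt family that acts on ion channels and transporters and is induced by both corticosteroid receptors. It had a deposited intensity of 691.4 (non-stressed WT), 226.2 (stressed WT), 429.7 (D2R-KO) and 173.2 (D2LR-KO). The non-stressed array was again highest, but the stressed arrays were spread, with D2R-KO well above the other 2. Against non-stressed WT the log2 fold was -1.25 in stressed WT (2.38-fold lower), -0.83 in D2R-KO (1.78-fold lower) and -1.87 in D2LR-KO (3.65-fold lower). In D2LR-KO this placed Sgk1 at rank 7 of 15574 from the lowest. Sgk1 was also 2.05-fold lower in D2LR-KO than in D2R-KO, at -1.04 and rank 8 of 15606, in the pair of arrays with the highest correlation of all. Against stressed WT it was at 0.42 in D2R-KO and -0.62 in D2LR-KO.

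The direction of the Sgk1 difference from non-stressed WT depended on the background. On the non-stressed array the spot read 1456 before any correction and the ring around it 1382, a ratio of 1.05. On the other arrays the spot read 397.9, 810.7 and 298.5 and the ring 223.9, 560.2 and 114.2, in the order stressed WT, D2R-KO and D2LR-KO, with ratios of 1.78, 1.45 and 2.61. Spot minus ring was therefore 73.8 in non-stressed WT against 174.0, 250.5 and 184.3 on the stressed arrays. With the ring as background the log2 folds against non-stressed WT became 0.86 (stressed WT), 0.87 (D2R-KO) and 0.75 (D2LR-KO), all of them higher in place of lower. In the other 7 settings Sgk1 stayed lower, between -1.70 and -1.18 in stressed WT, between -0.87 and -0.63 in D2R-KO and between -2.05 and -1.73 in D2LR-KO. D2LR-KO against D2R-KO went from -1.04 to -0.12 with the ring as background.

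The ring of Sgk1 was set beside those of other spots. Among 469 probes within 1.2-fold of its brightness on the non-stressed array, 6.82% had a lower ratio of spot to ring, and the median ratio was 1.91. On the stressed arrays the median ratio of such probes was higher, at 2.74 (stressed WT), 2.63 (D2R-KO) and 2.88 (D2LR-KO). A low ratio on the non-stressed array was thus in part shared by probes of like brightness. The shares with a lower ratio than Sgk1 were 21.8%, 9.47% and 44.2% in the same order. The 8 spots around it had rings with a median of 238.5 and a highest value of 817.9, so its own ring was brighter than any of theirs. Across all probes the ring followed the spot on each array, with r = 0.876 to 0.958 between their logs. Whether the bright ring came from the spot's own signal or from the slide was not tested. Of all probes on that array, 4.91% had a lower ratio than Sgk1.

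**Figure D2:**
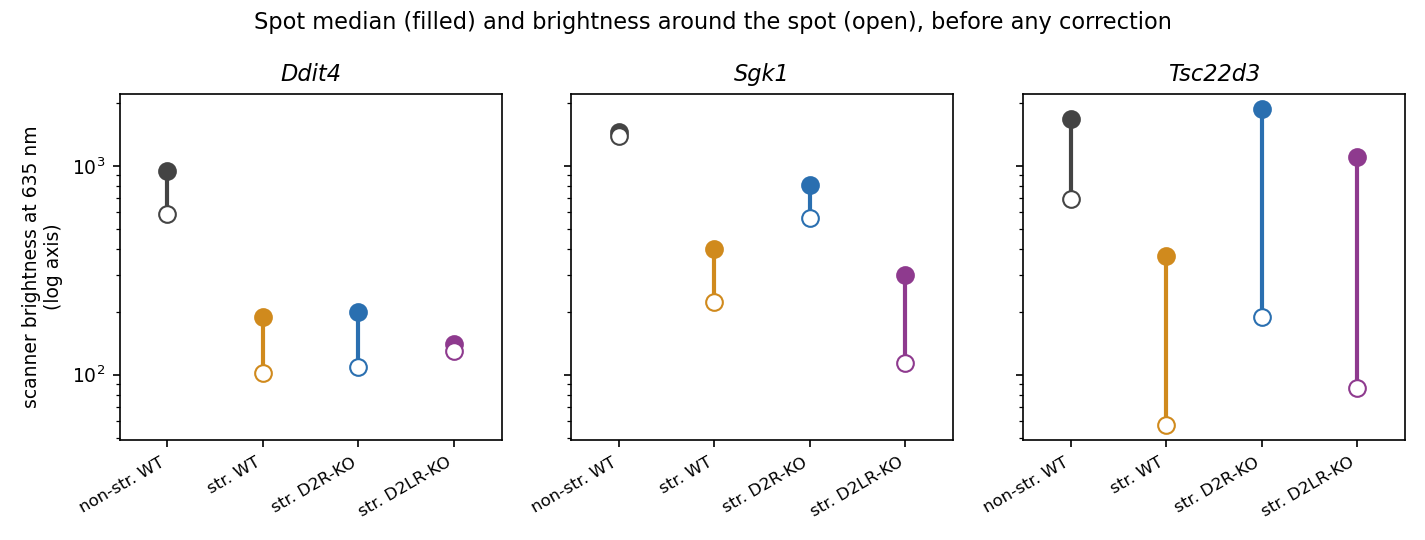
Spot median (filled) and brightness around the spot (open) for Ddit4, Sgk1 and Tsc22d3 on the 4 arrays. Values are in scanner units on a log axis and before any correction. For Sgk1 on the non-stressed array the markers nearly coincide, at 1456 and 1382.

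Ddit4 was read in the same way. Its spot and ring were 944.6 and 585.2 without stress, 188.6 and 102.4 in stressed WT, 199.9 and 108.6 in D2R-KO, and 140.7 and 130.2 in D2LR-KO. Spot minus ring was thus highest on the non-stressed array, at 359.5, and 86.3, 91.4 and 10.5 on the others. In D2LR-KO the ratio was 1.08, and only 1.27% of 1730 probes within 1.2-fold of its brightness had a lower one (median 2.20). On the other arrays 38.7% (non-stressed WT), 32.5% (stressed WT) and 33.0% (D2R-KO) of such probes did. Over the 8 other settings D2LR-KO ranged from -1.06 to -0.28 against stressed WT and from -0.89 to -0.14 against D2R-KO. Ddit4 was at least 2-fold lower against non-stressed WT in all 8 other settings for all 3 stressed groups, with log2 folds of -2.23 to -1.54 in stressed WT, -2.30 to -1.72 in D2R-KO and -2.68 to -1.96 in D2LR-KO.

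Tsc22d3 had another pattern. It encodes GILZ, a leucine zipper protein that mediates much of the anti-inflammatory action of glucocorticoids. Its deposited intensity was 799.2 (non-stressed WT), 207.6 (stressed WT), 1015.5 (D2R-KO) and 700.9 (D2LR-KO). Only the stressed WT array was low, and both knockout arrays, although stressed in the same way, were near the non-stressed level. Its log2 fold against non-stressed WT was -1.56 in stressed WT (2.94-fold lower), 0.14 in D2R-KO and -0.25 in D2LR-KO. Against stressed WT it was at 1.70 in D2R-KO and 1.31 in D2LR-KO, levels 3.25- and 2.48-fold higher. From the highest log2 fold downward those are ranks 42 of 15655 and 142 of 15640. The spot stood well clear of its ring, with ratios of 2.41, 6.38, 9.90 and 12.6 in the order non-stressed WT, stressed WT, D2R-KO and D2LR-KO, and the 3 differences at or above 2-fold kept their direction and stayed past 2-fold in all 8 other settings. All 3 of them use the stressed WT array, the one that stood apart. None of the 3 comparisons without it showed Tsc22d3 past 2-fold, and D2LR-KO was at -0.39 against D2R-KO.

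Fkbp5 differed little. It encodes FKBP51, a co-chaperone that lowers the hormone affinity of the glucocorticoid receptor and is itself induced by it, which closes a short feedback loop. The deposited intensity was 50.7 (non-stressed WT), 43.5 (stressed WT), 34.7 (D2R-KO) and 30.9 (D2LR-KO). These levels lay in the order non-stressed WT, stressed WT, D2R-KO, D2LR-KO, with log2 folds against the first of -0.08, -0.32 and -0.39. The gap between the 2 WT arrays (0.08) and that between the knockouts (0.07) were below the SDs at control spots of the same pairs of arrays (0.119 and 0.127, and 0.185 and 0.217), and the gap between stressed WT and D2R-KO (0.25) was above them (0.0966 and 0.103). Against non-stressed WT Fkbp5 stayed on the lower side in all 8 other settings and never reached 2-fold, and the highest deposited value was 1.64 times the lowest.

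Nr3c1, the glucocorticoid receptor gene, was lowest in stressed WT. Its deposited intensity was 36.9 (non-stressed WT), 14.7 (stressed WT), 31.1 (D2R-KO) and 32.4 (D2LR-KO). Like Tsc22d3 it was thus low on the stressed WT array and similar on the other 3. Its log2 fold against non-stressed WT was -0.61 (stressed WT), -0.14 (D2R-KO) and -0.09 (D2LR-KO). Against stressed WT the knockouts were at 0.48 and 0.53. The offset of 50 damps the folds of a gene this dim. From deposited values with no pseudocount the log2 fold was -1.33 in stressed WT against non-stressed WT, and 1.08 in D2R-KO and 1.14 in D2LR-KO against stressed WT. With the ring as background all 3 stressed groups turned to higher than non-stressed WT, at 0.23, 0.52 and 0.48, while the knockouts stayed above stressed WT. On the non-stressed array the Nr3c1 spot read 114.1 and its ring 107.3, and 6.27% of all probes had a lower ratio.

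Nr3c2, the mineralocorticoid receptor gene, was dim on every array. Its deposited intensity was 15.0 (non-stressed WT), 13.7 (stressed WT), 8.3 (D2R-KO) and 6.5 (D2LR-KO). The order of the arrays was that of Fkbp5, with log2 folds against non-stressed WT of -0.07, -0.24 and -0.31. The gaps between the WT arrays and between the knockouts, both 0.07, lay below the SDs at control spots of the same pairs, and that of 0.16 between stressed WT and D2R-KO lay above them. Those control spots had medians of 3887 to 13292, far brighter than the Nr3c2 spot at 46.6 to 69.4. From deposited values with no pseudocount D2LR-KO was at -1.21 against non-stressed WT, so the size of its difference depended on the offset. Its direction against non-stressed WT did not change in any of the 8 settings. Against stressed WT both knockouts turned from lower to slightly higher with the ring as background, at 0.05 (D2R-KO) and 0.07 (D2LR-KO).

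**Figure D3:**
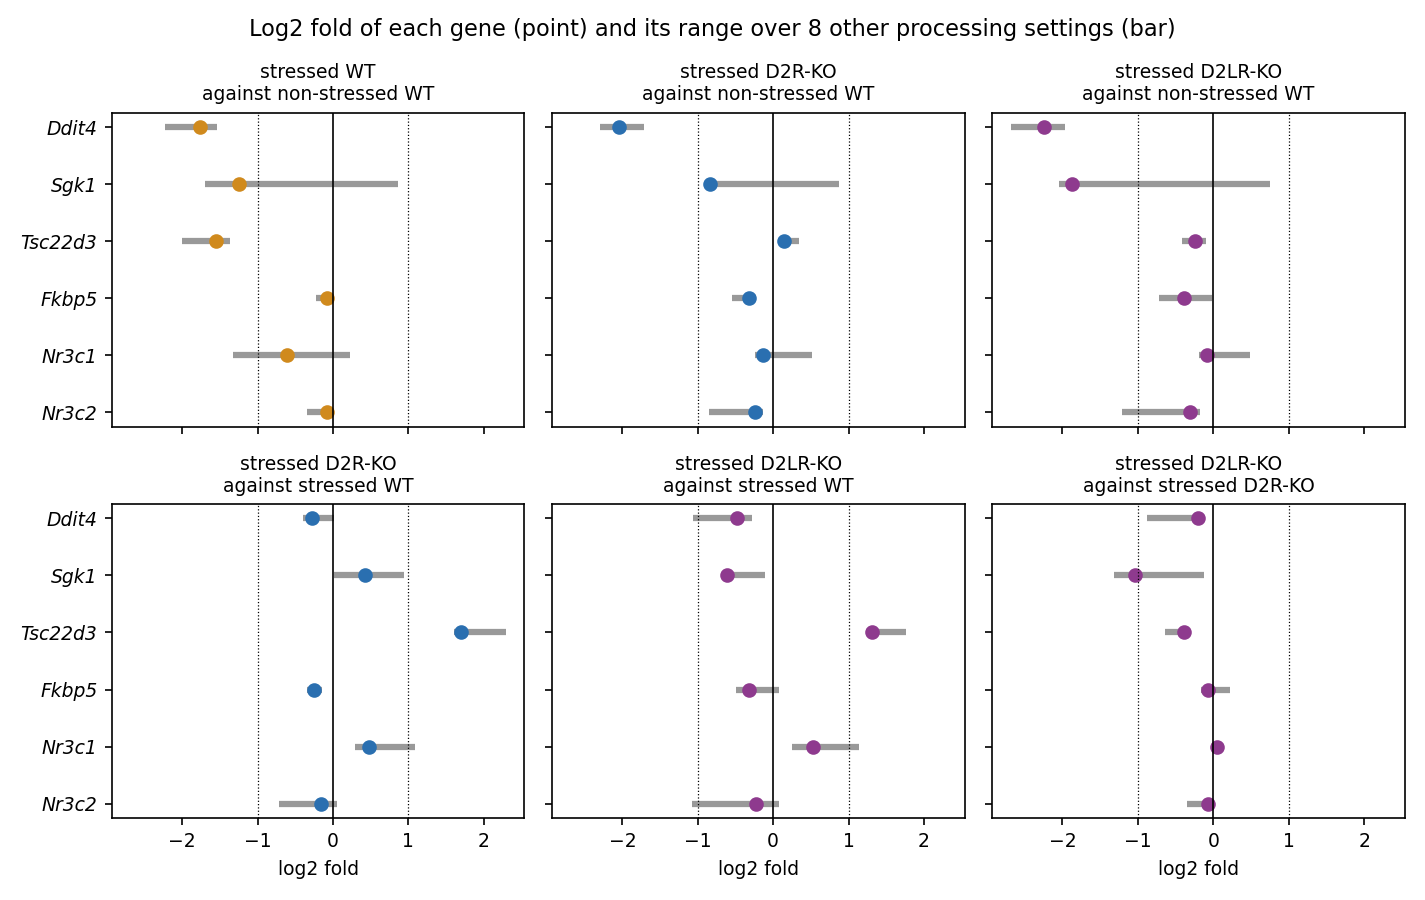
Log2 fold (log2 of signal plus 50) of the 6 genes in the 6 comparisons, 1 panel each. Points are the values given in the text, grey bars span the 8 other settings, and dotted lines mark 2-fold. Ddit4 lies left of the 2-fold line for every stressed group against non-stressed WT with its whole bar, the Sgk1 bars cross 0 there, and Tsc22d3 lies right of the line for both knockouts against stressed WT.

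A difference of 2-fold or more was called if either array of the comparison detected the gene. In stressed WT against non-stressed WT 3 of the 6 members were called lower (Ddit4, Sgk1, Tsc22d3), where 2.15% of all genes compared were, and none higher, where 1.46% were. In D2R-KO against non-stressed WT Ddit4 alone was called lower, against 0.32% of all genes, and none higher, against 0.115%. In D2LR-KO against non-stressed WT Ddit4 and Sgk1 were called lower, against 0.308%, and none higher, against 0.109%. Against stressed WT Tsc22d3 was the only member called, higher in both knockouts, where 2.71% of genes were higher and 2.57% lower in D2R-KO, and 2.62% higher and 1.83% lower in D2LR-KO. In D2LR-KO against D2R-KO Sgk1 alone was called lower, against 0.0513% of genes, and none higher, against 0.147%. These 3 stressed groups share the non-stressed array as control, so a gene high on that array is lower in all 3 comparisons at once. The members of this set were chosen by name with such values known, and their counts stand beside the background as a description.

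At 1.5-fold Nr3c1 joined the lower members in stressed WT, which made 4 of 6 against 8.12% of all genes, and Sgk1 joined Ddit4 in D2R-KO, 2 of 6 against 1.49%. In D2LR-KO the count stayed at 2 of 6, against 1.41%. No member was 1.5-fold higher than non-stressed WT in any group, where 7.27%, 0.577% and 0.745% of genes were, in the order stressed WT, D2R-KO and D2LR-KO. How genes split between higher and lower in stressed WT depended on the scaling. With each array scaled to a common median 893 genes were at least 2-fold lower and 30 higher, against 336 and 229 with quantile normalization, and with the ring as background 576 were lower and 749 higher.

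Other genes known to be induced by glucocorticoids were then counted, from a list of 30, of which 26 had a probe. In stressed WT against non-stressed WT 4 were at least 2-fold lower and 1 higher, with a list median of -0.36 against 0.00 over all genes. Of all genes 2.15% were lower and 1.46% higher. At 1.5-fold 8 were lower and 3 higher, against 8.12% and 7.27% of all genes. In D2R-KO 1 was 2-fold lower and none higher (median -0.07), against 0.32% and 0.115%. In D2LR-KO 2 were lower and none higher (median -0.18), against 0.308% and 0.109%. At 1.5-fold 5 of 26 were lower and none higher in each knockout. All-gene shares were 1.49% lower and 0.577% higher in D2R-KO, and 1.41% and 0.745% in D2LR-KO. The medians stayed below 0 in all 9 other settings for each stressed group, between -0.70 and -0.27 in stressed WT, -0.16 and -0.01 in D2R-KO and -0.43 and -0.13 in D2LR-KO. Against stressed WT 1 was at least 2-fold lower and 2 higher in D2R-KO, against 2.57% and 2.71% of all genes. In D2LR-KO 2 were lower and 1 higher, against 1.83% and 2.62%.

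The largest difference was that of Glul, which encodes the glutamine synthetase of astrocytes. It had deposited intensities of 728.9 (non-stressed WT), 90.6 (stressed WT), 474.3 (D2R-KO) and 84.5 (D2LR-KO), in the same order of arrays as Sgk1. Its log2 fold against non-stressed WT was -2.52 (stressed WT), -0.77 (D2R-KO) and -2.75 (D2LR-KO). Nfkbia, whose protein holds NF-kappaB in the cytoplasm, was lower on all 3 stressed arrays, at 601.8, 212.2, 349.7 and 296.2 with log2 folds of -1.14, -0.89 and -1.0. Like Ddit4 it was highest on the non-stressed array by a wide step. Lcn2, a secreted iron-trafficking protein of the acute phase, was also highest there, at 99.2 against 46.1, 32.8 and 36.7 (log2 folds -0.68, -1.04 and -0.94).

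Gjb6, the astrocyte connexin 30, was low mainly in stressed WT, at 1118.5 (non-stressed WT), 306.0 (stressed WT), 953.5 (D2R-KO) and 787.8 (D2LR-KO) (log2 folds -1.48, -0.39 and -0.52). Txnip, an inhibitor of thioredoxin, was at 173.1, 56.6, 105.9 and 144.9 (log2 folds -1.12, -0.65 and -0.22). Gpd1, a glycerol-3-phosphate dehydrogenase, was the one gene of the list at least 2-fold higher, at 206.6 in non-stressed WT and 358.4 in stressed WT (log2 fold 1.0), which turned to -0.29 with the ring as background. The 5 genes past 1.5-fold lower in D2R-KO were Glul, Nfkbia, Lcn2, Txnip and the transcription factor gene Cebpb (-0.66), and in D2LR-KO they were Glul, Nfkbia, Lcn2, Cebpb (-0.65) and the phosphatase gene Dusp1 (-0.93). Cebpb and Dusp1 were named after their values were seen, as were Dnajb1, Hsp90aa1, Fkbp4, Hsd11b1, Hsd11b2 and Ddit4l in what follows. So were Akr1c18, Serpina6, Srd5a1 and Nedd4l.

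**Figure D4:**
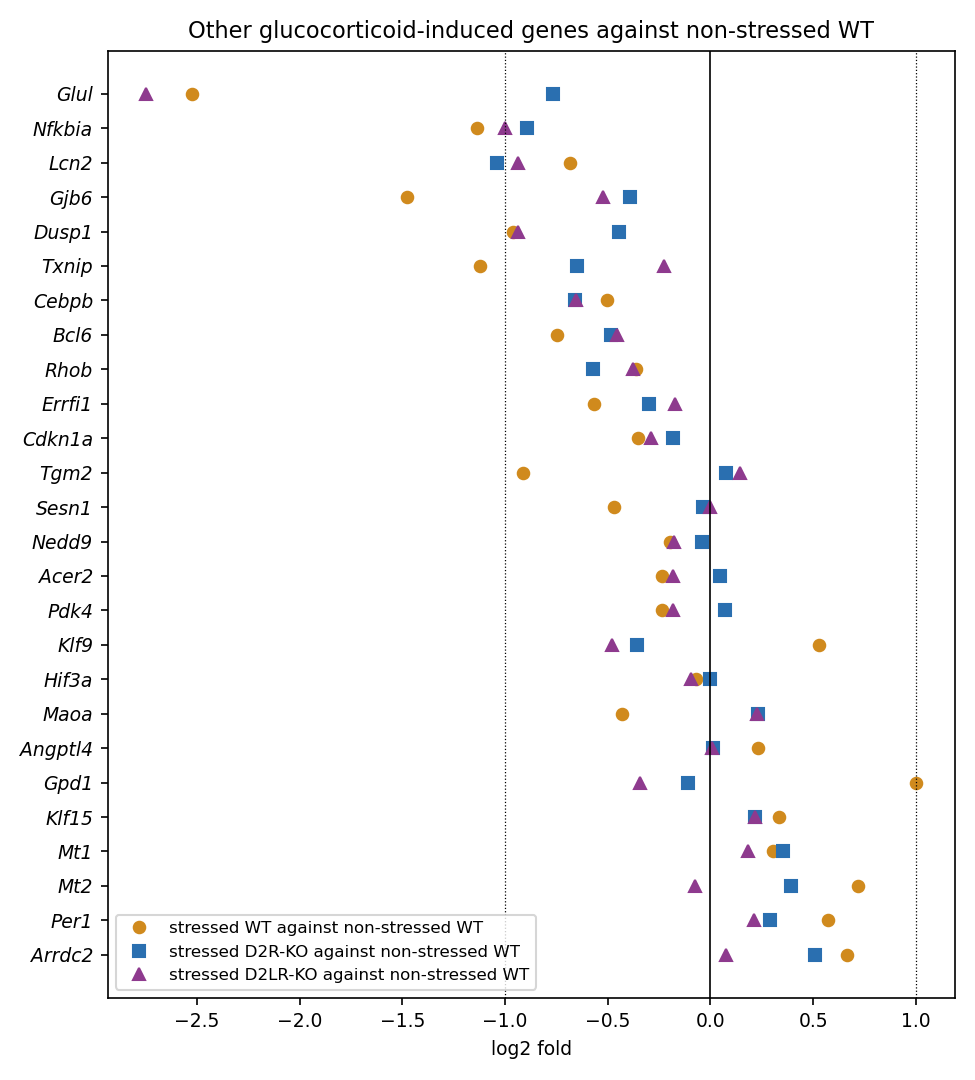
Log2 fold (log2 of signal plus 50) against non-stressed WT of 26 other glucocorticoid-induced genes, for stressed WT (circles), D2R-KO (squares) and D2LR-KO (triangles), with 2-fold marked by dotted lines. Glul is at -2.52 and -2.75 in stressed WT and D2LR-KO, Nfkbia and Lcn2 lie left of 0 for all 3 groups, and Gpd1 in stressed WT reaches 1.0.

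The machinery around the receptors was counted next. Of 13 chaperones and co-chaperones of the receptor complex 12 had a probe, and 2 were called lower in stressed WT, against 2.15% of all genes (list median 0.01), none in either knockout against non-stressed WT. Ppid, the cyclophilin co-chaperone, had deposited intensities of 755.5 (non-stressed WT), 191.7 (stressed WT), 994.6 (D2R-KO) and 698.2 (D2LR-KO). Dnajc7, a co-chaperone of HSP70 and HSP90, was at 789.9, 166.3, 828.1 and 593.9 in the same order. Both had their low point in stressed WT, as Tsc22d3 did, with log2 folds there of -1.61 and -1.87, but Dnajc7 turned to 0.75 with the ring as background. Dnajb1, which encodes the HSP70 co-chaperone HSP40, was just short of 2-fold lower on all 3 stressed arrays, at 921.3 in non-stressed WT against 364.2, 503.5 and 479.2 (log2 folds -0.98, -0.99 and -0.94). Hsp90aa1, which encodes the stress-inducible HSP90, was at 0.04, 0.01 and -0.28 against non-stressed WT, and Fkbp4, the co-chaperone that opposes FKBP51, at 0.20, 0.46 and 0.09.

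Of 9 coactivators and corepressors with a probe, 1 was called against non-stressed WT. It was the corepressor gene Ncor1, lower in stressed WT, where 2.15% of all genes were. Against stressed WT 2 of the 9 were called higher in D2R-KO and 1 in D2LR-KO, against 2.71% and 2.62% of all genes. The deposited intensity of Ncor1 was 218.6, 71.0, 256.9 and 244.1 over the 4 arrays. Its log2 fold against non-stressed WT was -1.17 in stressed WT and 0.08 and 0.12 in the knockouts. Genes of local hormone supply and clearance gave no call against non-stressed WT among 6 compared, with medians of 0.47, 0.04 and 0.02. Of all genes 2.15% were called lower and 1.46% higher in stressed WT. In deposited intensity Serpina6 went from 45.7 in non-stressed WT to 95 in stressed WT (log2 fold 0.88). Akr1c18 went from 6.6 to 23 (0.53), and Srd5a1 the other way, from 4.7 to 1.5 (-0.16). The offset damps the folds of genes this dim, so the absence of a call does not show equal levels. Hsd11b1, the enzyme that regenerates active corticosterone inside cells, was at 272.8, 304.1, 369.0 and 390.2. Hsd11b2, the enzyme that inactivates it, was not above the detection limit on any array. The other steroid receptor genes, 6 with a probe, had no call against non-stressed WT, and the 14 partners of DDIT4 and SGK1, which include the mTOR complex and the ubiquitin ligase NEDD4-2, had none in any comparison.

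Paralogs of the induced genes were read beside them. Among 11 with a probe 2 were called lower in stressed WT, against 2.15% of all genes, with a list median of -0.34. None were called in the knockouts against non-stressed WT. Sgk3, a relative of SGK1 with a lipid-binding domain, went from 51.1 to 11.2 between the WT arrays (log2 fold -1.01). Tsc22d2, a relative of GILZ, went from 142.6 to 48.6 (-1.05). Ddit4l, the closest relative of Ddit4, was at 29.0, 7.1, 20.9 and 30.6, with log2 folds of -0.71, -0.22 and 0.05. On the knockout arrays it was thus near its non-stressed level, where Ddit4 was low. Of the list genes named above, Nfkbia in D2LR-KO, Lcn2, Txnip, Ncor1, Sgk3 and Tsc22d2 fell short of 2-fold in at least 1 other setting, and Glul, Gjb6, Ppid and Nfkbia in stressed WT did in none.

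The shapes of the members over the arrays were compared as the root mean square (RMS) difference of log2 values after each gene was centred on its own mean. Fkbp5 and Nr3c2 were the closest pair at 0.0425, but both varied little. Ddit4 and Sgk1 differed by 0.438 and Tsc22d3 and Nr3c1 by 0.454, while Ddit4 and Tsc22d3 were the farthest pair at 1.0. Among 1111 genes detected on all 4 arrays with a range of at least 1 log2 unit, those nearest to Ddit4 were Ch25h, which encodes cholesterol 25-hydroxylase (RMS 0.171), Folr1, a folate receptor of the choroid plexus (0.297), and Guca1a (0.319). Ch25h had deposited intensities of 130.4, 12.3, 11.1 and 11.0, a single high array as for Ddit4. The nearest to Sgk1 were Prmt1 (0.251), Dynll2 (0.264) and the immediate early gene Nr4a1 (0.290). Nearest to Tsc22d3 were Impact (0.0342), Ppid (0.0430) and Plpbp (0.0552), with Impact at 1984.3, 546.9, 2595.2 and 1924.1. Nr3c1 was nearest to U2af1 (0.156), Gucy1b1 (0.161) and Rhoa (0.163). Fkbp5 and Nr3c2 had the same 3 neighbours, Cadm1, Gria2 and Rab5c, at 0.229 to 0.257 and 0.261 to 0.278. These distances rest on 4 arrays that all genes share.

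Markers of cell types that a raphe dissection can contain also differed between the arrays. Choroid plexus and ependyma markers, 9 of 10 with a probe and all detected on every array, summed to 15554 in deposited intensity in non-stressed WT, 6717 (stressed WT), 2298 (D2R-KO) and 2110 (D2LR-KO). The non-stressed array was highest, as for Ddit4. The list medians were -0.91, -0.80 and -0.65 against non-stressed WT, with 3 of 9 called lower each time. Of all genes 2.15%, 0.32% and 0.308% were lower, in the order stressed WT, D2R-KO and D2LR-KO. On the WT arrays most of the sum was Ttr, the transthyretin gene, at 12884, 5720, 20.3 and 193.1. On the knockout arrays most of it was Enpp2, which encodes autotaxin, at 2369, 853.8, 2172 and 1812. Endothelial and pericyte markers, all 10 detected, summed to 3792, 1577, 3932 and 5192, lowest in stressed WT as Tsc22d3 and Nr3c1 were, and the list median there was -0.87. Meningeal markers, 9 of 10 with a probe, summed to 1258, 663.2, 851.0 and 2365. Astrocyte markers, all 10 detected, summed to 18059, 15523, 21372 and 19588, and microglial ones to 2096, 1451, 2115 and 2248. The brightest astrocyte marker was Aldoc, at 11698.4, 12513.6, 14195.8 and 12545.3, which weighs on the astrocyte sums. In stressed WT against non-stressed WT 2 of the 10, Gja1 and Gjb6, were called lower and none higher, with a list median of -0.21.

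Neuronal markers differed between the arrays too. Pan-neuronal markers, 9 of 10 with a probe, summed to 23374, 15500, 29827 and 21756, which ranks the arrays as Tsc22d3 does. The brightest of them was Uchl1, at 8969.3, 4702.3, 11115.5 and 8021.1, which weighs on these sums. Of the 9, 1 was called lower in stressed WT against non-stressed WT, where 2.15% of all genes were. It was Snap25 of the synaptic vesicle release machinery, at -1.01. The list median there was -0.08, and at 1.5-fold 2 were lower and 1 higher, against 8.12% and 7.27% of all genes. Cortex and hippocampus markers, 9 of 10 with a probe, summed to 6636 and 7488 on the WT arrays. In D2R-KO and D2LR-KO they summed to 2290 and 2383. Against non-stressed WT 5 of 9 were called lower in each knockout, where 0.32% (D2R-KO) and 0.308% (D2LR-KO) of all genes were. Serotonergic markers, 9 of 10 with a probe, summed to 2407, 1968, 3529 and 3734. The brightest of them was Ddc, at 1562.6, 1119.0, 1735.3 and 2253.8, which weighs on these sums. Against non-stressed WT 3 of the 9 were called higher in D2R-KO and 1 in D2LR-KO, where 0.115% and 0.109% of all genes were. None were called lower. In D2R-KO they were Tph2, Slc6a4 (11.6, 6.8, 89.6 and 43.5 over the 4 arrays) and Gchfr (19.4, 18.5, 87.1 and 60.7). In D2LR-KO it was Tph2. The list median in D2LR-KO against D2R-KO was -0.29, although the sum was higher in D2LR-KO. Pituitary markers summed to 585.8 in D2R-KO and to 89.2 to 125.3 on the other arrays. Among them Prl, the prolactin gene, was at 156.3 in D2R-KO, 1.9 in non-stressed WT, 1.3 in D2LR-KO and not detected in stressed WT. Oligodendrocyte markers, 8 of 10 with a probe, summed to 18360, 16780, 23520 and 23553. The part of these marker differences in the levels of Ddit4, Sgk1, Tsc22d3 and the receptors was not tested.

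**Figure D5:**
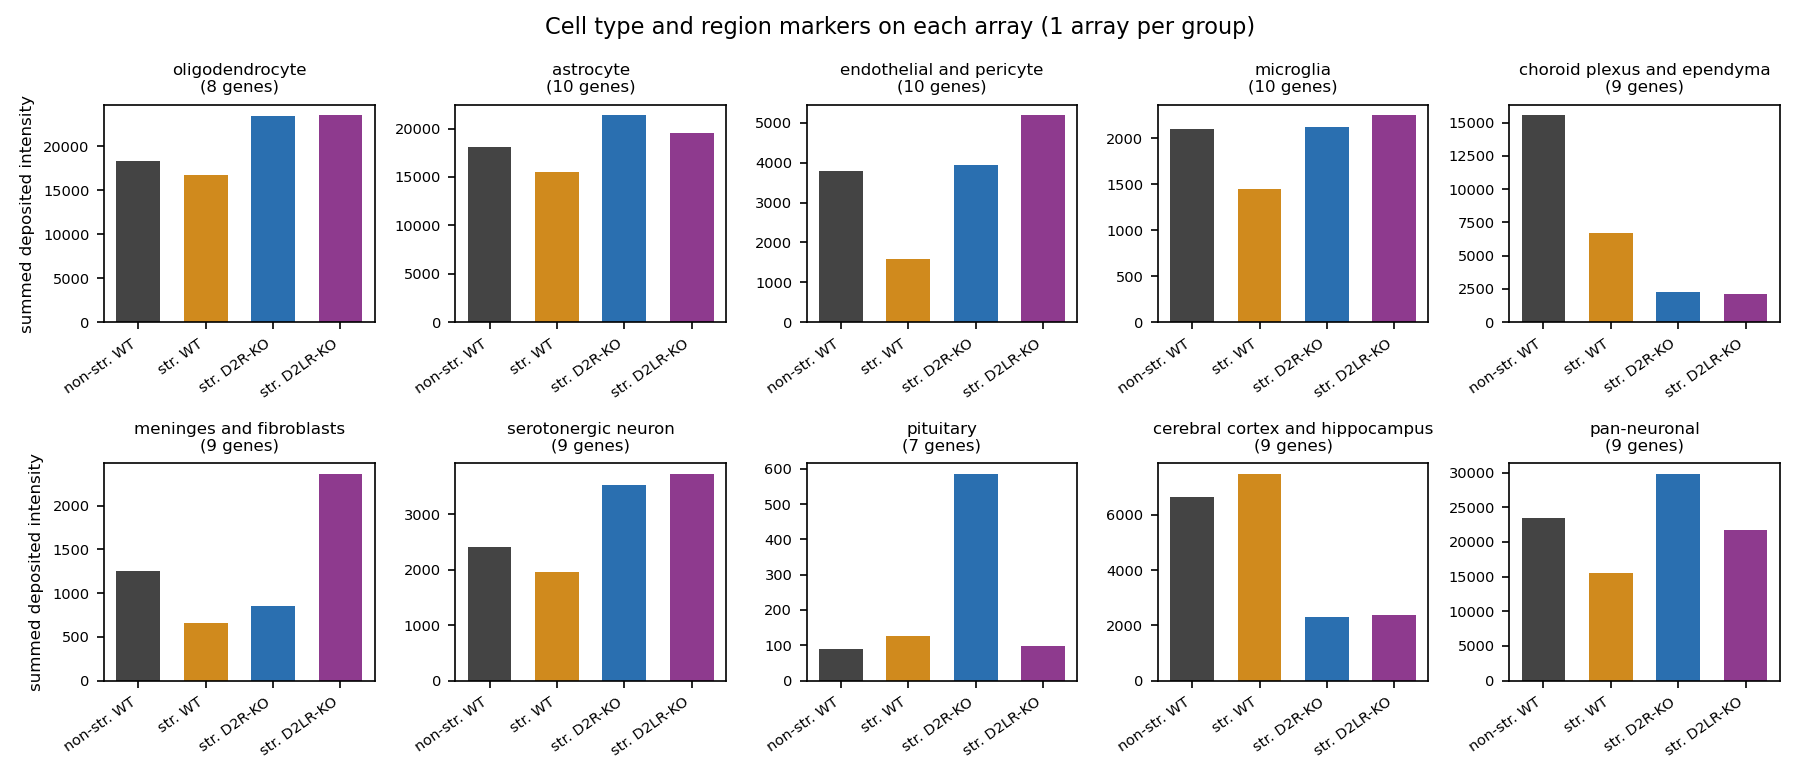
Summed deposited intensity of marker lists on the 4 arrays, 1 bar per array and 1 panel per list, each axis from 0 and without error bars since each group is 1 pool. The choroid plexus and ependyma sum is highest in non-stressed WT (15554), and the endothelial and pericyte sum is lowest in stressed WT (1577).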

How the data were processed

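RNA of 4 pools was labelled with Cy5 and hybridised to Toray arrays, per the labels' protocols. Each deposited scanner file holds uncorrected median intensities of the spots and of the rings around them, combined from 3 scans, per the file headers. The authors' deposited table is linear intensity. Its values can be recovered by subtracting a constant (36.7 to 38.8 by array) from the spot median and dividing by a factor (1.51 to 2.05), with no use of the ring. The authors' software: not given in the sources used here.

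Spot medians were corrected with limma 3.58.1 (nec, R 4.3.3), with 2736 blank spots per array as negative controls and an offset of 50, put on a log2 scale and quantile normalized over 4 arrays. The log2 values are therefore computed here and the deposited intensities are the authors'. Detection meant a spot over 2 SD above the blank mean (38.0 to 40.3, against a median gene spot of 67.1 to 80.1), which 91.0% to 91.6% of 23464 probes passed. No total count exists for arrays, and their number limits the precision. The probe table names 16631 probes, with 16446 symbols, of which 3883 older ones were updated through RefSeq. The brightest of several probes stood for a gene.

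The 6 comparisons are differences of single arrays, called at 2-fold, with no test. Named are all members, list genes called against non-stressed WT, the 3 genes nearest to each member, and markers called or brightest in their list. Members and lists were chosen with earlier results of these data known. The alternatives changed background, offset, normalization, value table, probe choice, detection and threshold, of which 8 can move a member's fold. A further one, quantile normalization over the 3 arrays other than stressed WT, was chosen after seeing the data. The procedure was tested on simulated data. Other steps used Python 3.11.15, numpy 2.4.6 and pandas 2.3.3.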

Additional observations from a re-analysis of the deposited data

How the results depend on the processing

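No value has a replicate, so stability over settings says nothing of mice. With the ring around each spot as background, Sgk1 turned from lower to higher against non-stressed WT in stressed WT (0.86) and D2LR-KO (0.75). The count of members at least 2-fold lower then went from 3 to 2 in stressed WT and from 2 to 1 in D2LR-KO against non-stressed WT, from 1 to 0 in D2LR-KO against D2R-KO, and from 0 to 1 in D2LR-KO against stressed WT, where Ddit4 went to -1.06. An offset of 100 also gave 0 in D2LR-KO against D2R-KO. From deposited values with no pseudocount, 2 members were higher in D2R-KO and 2 in D2LR-KO against stressed WT, and 1 was lower in D2LR-KO against stressed WT, while against non-stressed WT 4 were lower in stressed WT and 3 in D2LR-KO. At 1.5-fold, 4 were lower in stressed WT against non-stressed WT, 2 were lower in D2R-KO against non-stressed WT and 1 in D2LR-KO against stressed WT. Normalization over the 3 arrays other than stressed WT moved no count of members, with Ddit4 at -2.10 and -2.31 in D2R-KO and D2LR-KO against non-stressed WT. The mean of a gene's probes and detection on both arrays moved none either, since each member has 1 probe detected everywhere. Median scaling left the other genes of stressed WT split 893 lower to 30 higher, and for D2R-KO against stressed WT 49 to 1129 (403 to 425 with quantile normalization) and for D2LR-KO against stressed WT 74 to 619 (286 to 409). With the ring as background 259 were lower and 532 higher in D2R-KO, and 134 and 496 in D2LR-KO, where the main counts against non-stressed WT were 50 and 18, and 48 and 17. From deposited values with no pseudocount the median of all genes in D2R-KO against stressed WT was 0.11. No paired analysis was possible because each group has 1 array. The causes of these changes were not tested. Scan saturation is not documented, and no member was near the highest spots of 45514 to 57662.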
